A study of Mus musculus with 6 samples.

Results

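The circadian clock of heart muscle cells was examined through 10 of its genes, Nr1d1, Nr1d2, Per1, Per2, Per3, Dbp, Tef, Arntl (also called Bmal1), Clock and Cry2, together with every annotated feature whose exons overlap theirs on the other strand. These were 14 of the 46078 features in the count tables: the 10 genes' own rows and 4 opposite-strand rows (Thra, Sphk2, Gm17597 and D930015M05Rik). The tissue was mouse heart, from which muscle cells had been isolated by perfusion outside the body. One group was labelled Acly-KD (Acly_KD, n = 3), cells of mice in which Acly, the gene of ATP citrate lyase, was knocked down using Cas9 placed under the promoter of Myh6, the main myosin heavy chain gene of heart muscle. The other was labelled control, with the genotype wildtype (n = 3). Whether the controls carried Cas9, the guide used, the age and sex of the animals, the time of day at which hearts were taken, and whether the 3 libraries of a group came from separate animals are not given in the sources used here, so the p-values speak for the spread among these libraries, which could be technical in part. Where 3 values are given for a group, they stand in the order of replicates 1, 2 and 3.

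The clock is a loop of transcription and repression. ARNTL and CLOCK pair up and switch on genes that carry E-box sequences, among them the Period genes (Per1 to Per3), the Cryptochrome genes (Cry2 here) and the nuclear receptors Nr1d1 and Nr1d2, also known as REV-ERB alpha and beta. PER and CRY proteins then hold back the ARNTL and CLOCK pair, while the REV-ERBs repress Arntl itself. Dbp and Tef encode PAR-type bZIP factors that carry the rhythm to output genes through D-box sequences. In mouse heart the muscle cells keep a clock of their own, which is known for timing fuel use and ion channel expression, and the RNA levels of most of these genes swing with the time of day.

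The counts look as though each read pair had been credited to the wrong strand. Nuclear features with exons opposite to those of another gene were 18.0% of all and held 91.9% of the nuclear counts. Reads in features numbered 460222 to 799868 in the Acly_KD libraries and 271463 to 814765 in the controls, which was 2.81% to 3.07% of uniquely aligned reads. The own row of Acly had 0 reads in each Acly_KD library and 1, 5 and 6 reads in control. With reads credited to the wrong strand, a gene's own row is not a measure of its mRNA. These counts therefore do not measure the knockdown. Features opposite to Xist had 0 reads in all Acly_KD libraries and 0, 149 and 137 reads in control. With the strand turned round these would be reads of Xist RNA. Control replicates 2 and 3 had them, whereas control replicate 1 was like the Acly_KD libraries, and the sex of the animals is not given. This difference is thus partly confounded with the groups, and values from fits with a term for it are given at the end. All 8 heart muscle markers (Myh6, Myl2, Tnnt2, Tnni3, Actc1, Ryr2, Pln and Ttn) had reads at their own loci. Their summed level there was 4090, 8382 and 14670 CPM in Acly_KD and 10840 to 13860 CPM in the controls, where CPM is the read count scaled to library size and normalized by TMM, edgeR's method of making libraries comparable. The 5 endothelial markers summed to 7.68 to 70.0 CPM in Acly_KD and 20.1 to 33.1 CPM in control. The fibroblast list summed to 16.9 to 26.9 CPM in Acly_KD and 12.9 to 24.9 CPM in control, and the smooth muscle list to 41.5 to 117.5 CPM in Acly_KD and 91.0 to 103.5 CPM in control. Of the blood and immune list, with 6.14 to 17.1 CPM in Acly_KD and 17.3 to 40.1 CPM in control, Ptprc was at 0, and of the atrial list, with 13.8 to 22.0 CPM in Acly_KD and 18.2 to 37.9 CPM in control, Sln was at 0. In the reading of mRNA through opposite-strand features, 2 of the 8 heart muscle markers could be measured, Myl2 and Ttn. Their sum was 4840, 4485 and 4168 CPM in Acly_KD and 3472, 3864 and 3318 CPM in control, higher in every Acly_KD library than in every control. Myl2 alone was at 2373.7, 1773.2 and 2244.5 CPM in Acly_KD and 2112.9, 2233.8 and 1586.7 CPM in control, with overlapping groups. Of the 1453 genes tested in that reading, 14.7% had groups that did not overlap. Nppa, the 1 atrial marker measured that way, was at 12040, 3514 and 5528 CPM in Acly_KD and 2575, 8153 and 3503 CPM in control, and 0 markers of the other 4 lists were measured. The part of these differences in the values below was not tested.

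With the strand turned round, the mRNA of a clock gene can be seen only where its exons share bases with a feature on the other strand, and then it stands in that feature's row. In the mouse annotation (GENCODE M21, mm10) 5 of the 10 genes have such a feature. Nr1d1 (chromosome 11, 98767932 to 98775333, minus strand) shares 263 exonic bases with Thra, the thyroid hormone receptor alpha gene, at chr11:98768157-98768419. That stretch holds 197 coding bases of Nr1d1, its stop codon and the start of its 3′ UTR, and lies within the coding sequence of a Thra transcript. Dbp (chromosome 7, 45705088 to 45710203, plus strand) shares 539 bases of its last exon, 213 of them coding, with the last exon of 1 of the 4 transcripts of Sphk2, which encodes a sphingosine kinase, at chr7:45709665-45710203. Cry2 (chromosome 2, 92403646 to 92434043, minus strand) shares 295 bases in 2 exons with the noncoding transcript D930015M05Rik. Of these, 149 bases are coding in Cry2, and the rest lie in an exon of 1 of the 4 Cry2 transcripts. The following 30 bases of the stretches of Nr1d1 and Dbp show how the pairs face each other; each pair is the same piece of chromosome (GRCm38) read 5′ to 3′ along its own gene, with the stop codon of the clock gene, or its complement, in capitals. They come from chr11:98768207-98768236 and chr7:45709865-45709894.
Nr1d1, minus strand: gggtggacgcccagTGAcccgcccggccgg
Thra, plus strand: ccggccgggcgggTCActgggcgtccaccc
Dbp, plus strand: gcatgggacactgTGAggccacctccaccc
Sphk2, minus strand: gggtggaggtggccTCAcagtgtcccatgc

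**Figure D1:**
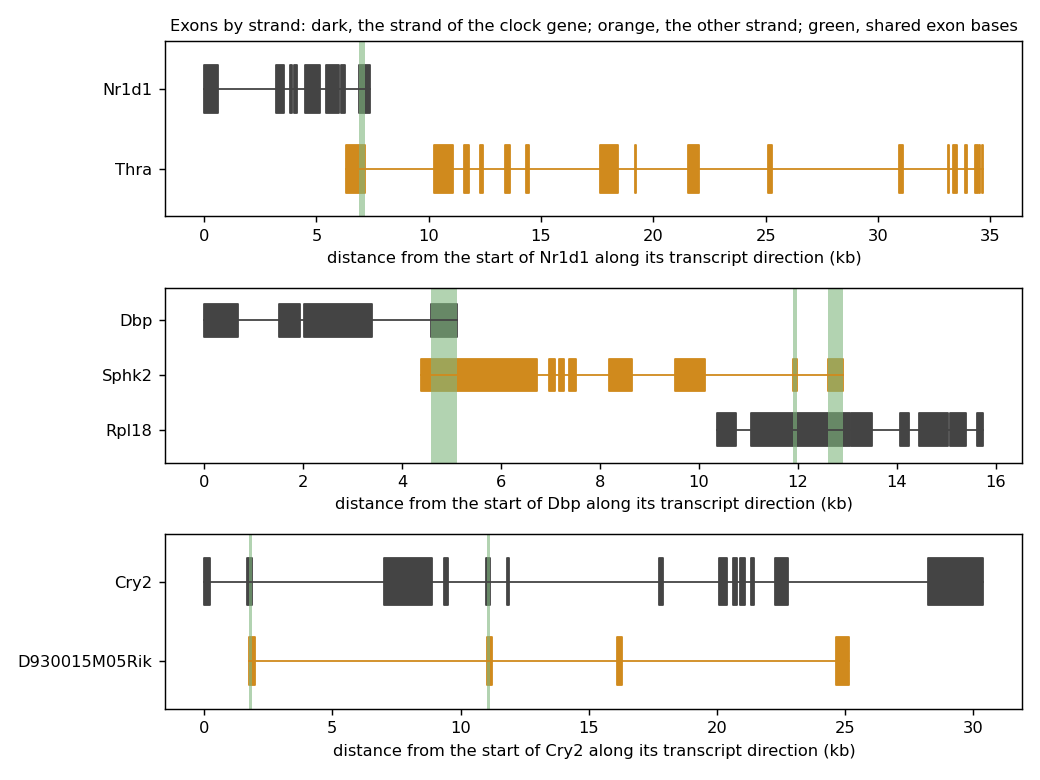
Exons of Nr1d1, Dbp and Cry2 and of the annotated genes around them, against distance in kb from the start of each clock gene along its own direction. Dark boxes lie on the clock gene's strand and orange boxes on the other, and green bands mark shared exonic bases: 263 for Nr1d1 with Thra, 539 for Dbp and 373 for Rpl18 with Sphk2, and 295 for Cry2 with D930015M05Rik.

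The remaining genes gave little or no view of their mRNA. Tef shares 193 bases of an untranslated exon, present in 1 of its 10 transcripts, with Gm17597, and that feature had 0 reads in all 6 libraries. Arntl shares 33 bases with Gm45355, for which the count tables hold no row, so Arntl mRNA could not be read. Nr1d2, Per1, Per2, Per3 and Clock have no opposite-strand exon in the annotation. With the strand turned round, reads at their own rows would be reads of the wrong strand.

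Nr1d1, the REV-ERB gene that represses Arntl, was read through the row of Thra. That row held 106, 45 and 89 reads in Acly_KD, against 44, 153 and 105 reads in control. Its total was 542 reads, beside 511 in the Nr1d1 row. In Acly_KD replicates 2 and 3 and control replicate 3 the Nr1d1 row held more. Counts of opposite-strand features were given to the gene they face in a reading of mRNA that covered 2973 genes, of which 1453 passed a filter on low counts. A gene with counts of its own was read this way only if these were fewer. For Nr1d1 that rested on the narrow difference in totals. In that reading Nr1d1 was at 296, 205 and 225 CPM in Acly_KD and at 313, 355 and 286 CPM in control. Acly_KD replicates 2 and 3 lay below all controls, whereas Acly_KD replicate 1 lay between control replicates 3 and 1, so the groups overlapped. The means were 242 ± 47.8 CPM in Acly_KD and 318 ± 34.8 CPM in control (SD, n = 3 each). The log2 fold change of Nr1d1 was -0.39 (SE 0.20, 95% interval -0.81 to 0.03) and did not pass edgeR's quasi-likelihood test (adjusted p = 0.581). In bulk RNA of this kind, fewer cells of a type and less RNA per cell cannot be told apart.

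Cry2, a repressor of the ARNTL and CLOCK pair, was read through D930015M05Rik, with 66, 48 and 70 reads in Acly_KD and 25, 90 and 105 reads in control. Its level in the reading of mRNA was 184, 219 and 177 CPM in Acly_KD and 178, 209 and 286 CPM in control. The groups overlapped, with control replicate 3 above the other 5 libraries. The means were 193 ± 22.3 CPM in Acly_KD and 224 ± 55.8 CPM in control (SD, n = 3 each), and the log2 fold change was -0.26 (SE 0.23, 95% interval -0.74 to 0.22, adjusted p = 0.820 in edgeR). It ran from -0.37 to -0.025 with single libraries left out, the last being without control replicate 3. Of the 10 clock genes, 2 were therefore read as mRNA and tested in this way, and 0 passed, where 0.413% of the 1453 genes passed. Neither had an unadjusted p under 0.05 in edgeR, where 8.6% of the genes did. DESeq2 and limma-voom called 0 of them, and in limma-voom Nr1d1 had an unadjusted p of 0.0437 (adjusted p = 0.395). Both values lay below zero, where 49.5% of the 1453 genes had such values. The groups of both overlapped, whereas those of 14.7% of the genes did not. The median log2 fold change of the pair was -0.32, beside 0.01 over all genes tested.

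Dbp could not be separated from a neighbour. The Sphk2 row, which faces the end of Dbp, also shares 373 exonic bases with Rpl18, a ribosomal protein gene on the strand of Dbp, between positions 45716993 and 45718002 of chromosome 7. Those bases belong to 1 of 11 annotated Rpl18 transcripts, while the Dbp stretch is in all 5 transcripts of Dbp. Because Dbp held under 80% of the overlap, the reading of mRNA left it out, and its values are those of the Sphk2 row as deposited. This row held 512, 360 and 434 reads in Acly_KD and 262, 569 and 325 reads in control, or 786, 879 and 542 CPM in Acly_KD and 954, 673 and 467 CPM in control. The controls held both the highest and the lowest of the 6 values, and their highest was 2.04 times their lowest, beside 1.62 times in Acly_KD. With means of 736 ± 174 CPM in Acly_KD and 698 ± 244 CPM in control (SD, n = 3 each), the log2 fold change was 0.09 (SE 0.26, 95% interval -0.50 to 0.68, adjusted p = 0.972 in edgeR).

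The Nr1d1 row itself faces the end of Thra and can hold Thra mRNA in place of its own. It read 81, 51 and 98 reads in Acly_KD and 38, 105 and 138 reads in control. As deposited that was 124, 125 and 122 CPM in Acly_KD and 138, 124 and 198 CPM in control. The Acly_KD libraries lay within 1.02 times of each other, control replicate 2 lay among them, and control replicate 3 stood above the rest. The log2 fold change was -0.32 (SE 0.23, 95% interval -0.80 to 0.16, adjusted p = 0.929 in edgeR), and -0.072 without control replicate 3. For the Thra row on the same scale it was -0.36 (SE 0.22, 95% interval -0.83 to 0.11, adjusted p = 0.906 in edgeR), between -0.57 without Acly_KD replicate 1 and -0.19 without Acly_KD replicate 3. For the D930015M05Rik row it was -0.22 (SE 0.25, 95% interval -0.76 to 0.31, adjusted p = 0.961 in edgeR).

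In the table as deposited, 4 of the 14 features passed the filter on low counts (Nr1d1, Thra, Sphk2 and D930015M05Rik). Of the 4, 0 passed edgeR's test, where 0.0% of 2952 features passed. An unadjusted p under 0.05 was found for 0 of the 4 and for 6.1% of all features, and DESeq2 and limma-voom also called 0 of the 4. Their groups overlapped in each case, whereas 11.4% of all tested features had groups that did not.

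**Figure D2:**
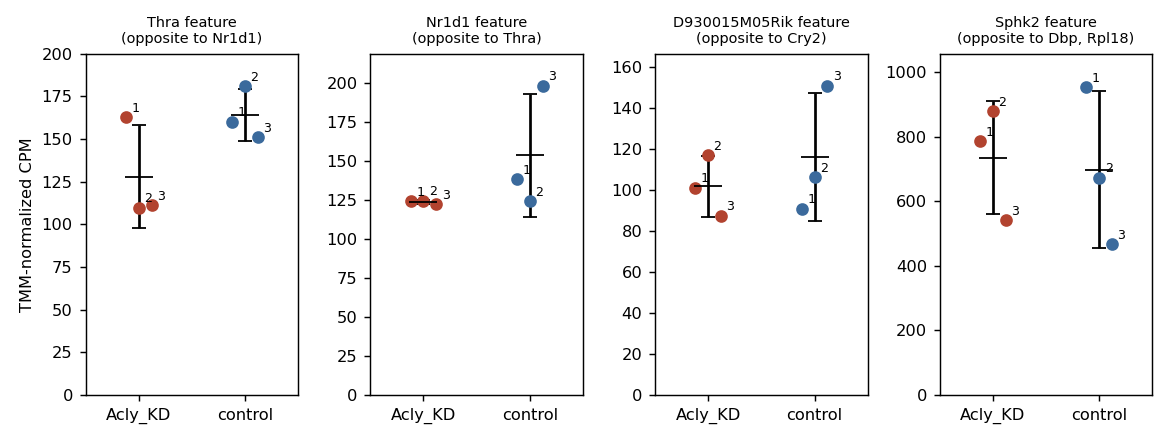
TMM-normalized CPM of the 4 rows that passed the filter, as deposited, in Acly_KD and control libraries. Points are libraries with their replicate numbers, bars the mean and SD of 3. The groups overlap in each panel, and the Sphk2 row spans 467 to 954 CPM among the controls.

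The 9 other own rows held few reads, 0 to 44 over all 6 libraries, and did not pass the filter. With no filter, edgeR tested the 8 that had reads among 15283 features and called 0 of them, beside 0.0196% of all features. An unadjusted p under 0.05 was found for 1 of the 8, Clock, with a p of 0.0399 (adjusted p = 0.736), beside 2.89% of all features. DESeq2 called 0 of the 8. Dbp, which faces Sphk2 and can hold its mRNA, had 5, 7 and 10 reads in Acly_KD and 4, 10 and 8 reads in control, a total of 22 in each group. Tef, the other PAR bZIP gene, had 4, 5 and 15 reads in Acly_KD and 2, 3 and 6 reads in control, and its summed level was 12.9 CPM in Acly_KD and 6.06 CPM in control with overlapping groups. Arntl, the activator, had 0 reads in all 6 libraries. At 3 counts, the limit that a count of 0 allows, this leaves up to 3.55 to 10.9 CPM for a library, and such limits cover counting error only.

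Clock, the partner of Arntl, had 1, 0 and 1 reads in Acly_KD and 3, 8 and 2 reads in control, or 1.54, 0 and 1.25 CPM in Acly_KD and 10.9, 9.47 and 2.88 CPM in control. Its groups did not overlap. The own row of Cry2 faces D930015M05Rik and can hold its RNA. This Cry2 row had 0, 0 and 1 reads in Acly_KD and 1, 4 and 3 reads in control, and its groups did not overlap either. For both, the two-sided exact permutation test of CPM gave p = 0.1, its smallest possible value with groups of 3. Among the 6778 features under the filter with 4 to 44 reads, 5.53% were likewise lower in every Acly_KD library than in every control, and 2 of the 8 rows with reads were.

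The period genes at their own rows had few reads in either group. Per1 had 1, 2 and 2 reads in Acly_KD and 3, 2 and 4 reads in control. Per2 had 1, 0 and 2 reads in Acly_KD and 1, 1 and 1 reads in control. Per3 had 0, 1 and 3 reads in Acly_KD and 0 reads in each control. For Nr1d2, the second REV-ERB gene, 0, 0 and 2 reads were counted in Acly_KD and 0, 10 and 1 reads in control, so 1 library held 10 of its 13 reads. Groups overlapped for all 4 genes, and differences between them were not detectable at this depth.

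With the strand turned round, the rows of genes without an opposite-strand exon would consist of reads on the wrong strand. Reads in such rows were not equally common in the libraries. Summed over the 5 genes without an opposite-strand exon (Nr1d2, Per1, Per2, Per3 and Clock) the reads came to 4.61, 7.33 and 12.5 CPM in Acly_KD and 25.5, 24.8 and 11.5 CPM in control. These sums rest on 3, 3 and 10 reads in Acly_KD and 7, 21 and 8 reads in control. Clock gave 1, 0 and 1 of these reads in Acly_KD and 3, 8 and 2 in control, so the sum is not independent of the Clock row. Over the whole series, features without opposite-strand exons took 4.96%, 6.96% and 10.3% of nuclear reads in Acly_KD and 9.04%, 9.03% and 7.79% in control. Acly_KD replicates 1 and 2 were the lowest libraries in both measures, the first of which includes Clock. The part of this in the low rows of Clock and Cry2 was not tested.

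**Figure D3:**
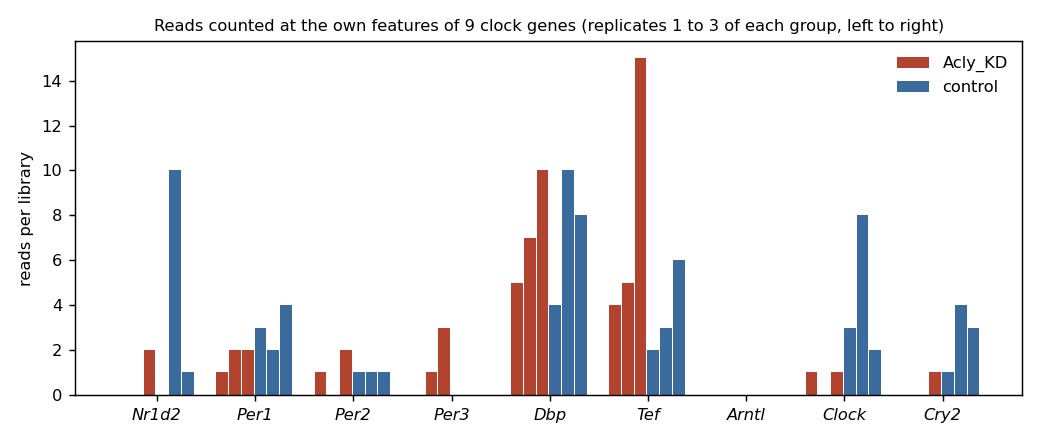
Reads per library counted at the own rows of the 9 clock genes other than Nr1d1, with the 3 Acly_KD replicates left of the 3 control replicates for each gene. The highest bar is 15 reads, for Tef in Acly_KD replicate 3, Arntl has 0 reads throughout, and Clock has at most 1 read in each Acly_KD library and 2 to 8 reads in the controls.

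Sequence elements of the clock were looked for in RefSeq promoters (GRCm38.p6; 250 bases before to 50 after a start), of which 14 belonged to 9 of the 10 genes. The E-box CACGTG, searched on both strands, was in 3 of these 14 promoters, at Per1 and at 2 starts of Tef, and in 7.15% of all 32851 promoters. The D-box TTANGTAA was in 1, at Per3, where it occurred at 2 places, and in 2.32% of all. The ROR element TAGGTCA, the type of site that REV-ERBs bind, was in 1, at Arntl, and in 2.61% of all. The 30 bases around each match are shown because these are the elements through which the loop is known to close; the match is in capitals, and the number is its first base counted from the start as 0. A match is a description of the letters and not a measured site.
Per1, E-box at -166, chr11:69098771-69098800, plus strand: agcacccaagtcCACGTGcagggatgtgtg
Tef, E-box at -127, chr15:81802534-81802563, plus strand: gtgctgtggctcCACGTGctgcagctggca
Tef, E-box at -138 of its other start, chr15:81811264-81811293, plus strand: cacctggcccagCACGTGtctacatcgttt
Per3, D-box at -205, chr4:151044852-151044881, minus strand: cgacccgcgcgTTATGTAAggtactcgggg
Per3, D-box at -158, chr4:151044805-151044834, minus strand: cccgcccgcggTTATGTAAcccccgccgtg
Arntl, ROR element at 30, chr7:113207530-113207559, plus strand: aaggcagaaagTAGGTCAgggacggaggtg

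A list of 27 other clock genes was examined in the same 2 ways. In the reading of mRNA 4 of them were measured, and 0 passed edgeR's test, beside 0.413% of all genes tested. In edgeR an unadjusted p under 0.05 was found for 0 of the 4, beside 8.6% of all genes, and DESeq2 and limma-voom called 0 of the 4. Below zero lay 3 of the 4 values, beside 49.5% of all, and their median was -0.19, beside 0.01. Rora, a nuclear receptor that activates Arntl through the sites where REV-ERBs repress it, had 11, 3 and 10 reads in Acly_KD and 3, 29 and 16 reads in control. Its level was 23.2 ± 8.71 CPM in Acly_KD and 44.1 ± 23.0 CPM in control (SD, n = 3 each), with overlapping groups, a log2 fold change of -0.98 and a 95% interval from -2.00 to 0.05 (adjusted p = 0.581 in edgeR). Control replicate 2 held more of its reads than the other controls together, and without that library the log2 fold change was -0.54. In limma-voom Rora had an unadjusted p of 0.0452 (adjusted p = 0.395), where 179 of 1453 genes had one under 0.05. The unadjusted p in limma-voom was 0.295 for Csnk1e, 0.637 for Csnk1d and 0.519 for Bhlhe40.

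The kinase genes Csnk1d and Csnk1e encode casein kinases 1 delta and epsilon, which phosphorylate PER proteins. Csnk1e read 419, 383 and 394 CPM in Acly_KD and 441, 444 and 461 CPM in control. All Acly_KD libraries lay below all controls, as for 6.61% of the genes tested, with a log2 fold change of -0.17 (SE 0.16, 95% interval -0.51 to 0.17, adjusted p = 0.835 in edgeR). Csnk1d read 299 ± 49.4 CPM in Acly_KD and 282 ± 27.5 CPM in control (SD, n = 3 each), with a log2 fold change of 0.06 and an interval of -0.34 to 0.47. Bhlhe40 (also Dec1), a repressor of E-box genes, read 182, 210 and 111 CPM in Acly_KD and 228, 181 and 174 CPM in control. Its groups overlapped, Acly_KD replicate 3 was the lowest library, and the log2 fold change was -0.21 with an interval of -0.76 to 0.34. Csnk1d is read through 63 shared bases, Rora through 82 and Bhlhe40 through 118, which is shorter than for Nr1d1, Cry2 and Csnk1e, with 267 bases.

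At their own rows 2 of the 27 passed the filter, Ncor1 and Noct. Ncor1, the corepressor that REV-ERBs recruit, read 188 ± 12.8 CPM in Acly_KD and 172 ± 20.2 CPM in control (SD, n = 3 each), with a log2 fold change of 0.11 and a 95% interval of -0.29 to 0.52. Noct, which encodes nocturnin, a protein known for rhythmic expression in mouse tissues, read 92.8 ± 4.52 CPM in Acly_KD and 84.9 ± 25.4 CPM in control (SD, n = 3 each), with a log2 fold change of 0.08 and an interval of -0.49 to 0.65. Control replicate 1 was the lowest library for Noct, at 58.3 CPM, and control replicate 2 the highest, at 108.9 CPM. No exon of another gene faces Noct, and Ncor1 shares 82 bases with Pigl and 1 with Ttc19, so these counts are not a measure of their mRNA. In the reading of mRNA the counts of the Ncor1 row were credited to Pigl.

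A list of 18 genes known as rhythmic or clock-controlled in mouse heart or several tissues had 0 members in the reading of mRNA and 7 past the filter at their own rows. Of the 7, 0 passed edgeR's test, beside 0.0% of all features, 0 had an unadjusted p under 0.05, beside 6.1%, and DESeq2 and limma-voom called 0. In limma-voom the unadjusted p was 0.0214 for Pdk4 (adjusted p = 0.328), 0.0271 for Herpud1, 0.0451 for Wee1 and 0.215 for Lpl. In that run 325 of 2952 features had an unadjusted p under 0.05. All 7 log2 fold changes were below zero, as for 54.4% of all tested features, with a median of -0.45 beside -0.04 over all features. Pdk4, a kinase that restrains pyruvate dehydrogenase, held 79, 53 and 247 reads in Acly_KD and 49, 271 and 183 reads in control. Its level was 121, 129 and 309 CPM in Acly_KD and 178, 321 and 263 CPM in control, a log2 fold change of -0.45 with a 95% interval of -1.37 to 0.47. Acly_KD replicates 1 and 2 lay below all controls, and Acly_KD replicate 3 lay among them.

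The same split was seen in the list as a whole, of which Pdk4 is a member. Against the control mean, the median of the 7 genes was -1.72, -1.06 and 0.31 (log2, after adding 2 reads) in Acly_KD, and -0.02 to 0.12 in the controls. The control values are centred on their own mean, so their narrow range is not a measure of spread to set against Acly_KD. In Acly_KD replicates 1 and 2, Dgat2 had 0 and 4 reads, Pnpla2 had 2 and 2, and Pik3r1 had 1 and 4. Wee1, a cell cycle kinase, read 13.8, 9.77 and 37.5 CPM in Acly_KD and 47.3, 29.6 and 40.3 CPM in control, with a log2 fold change of -0.82 (95% interval -1.87 to 0.24). Herpud1, a gene of protein quality control in the endoplasmic reticulum, read 7.68, 14.7 and 73.7 CPM in Acly_KD and 47.3, 42.6 and 48.9 CPM in control, with a log2 fold change of -0.44 (95% interval -1.95 to 1.07). Lpl, lipoprotein lipase, read 178 ± 103 CPM in Acly_KD and 202 ± 56.4 CPM in control (SD, n = 3 each), with a log2 fold change of -0.17 (95% interval -1.15 to 0.81).

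With the strand turned round these would again be reads of the wrong strand. The heart muscle markers at their own loci were lowest in the same Acly_KD replicates 1 and 2. So was the share of reads in features without opposite-strand exons. The part of both was not tested. Without Acly_KD replicate 3, edgeR called Pdk4 (log2 fold change -1.003, adjusted p = 0.0300) and Herpud1 (-2.04, adjusted p = 0.0363) lower. That run called 69 of 2998 features, 46 of them lower, where the fit of all libraries called 0. Over all alternatives of Pdk4 and Herpud1 the adjusted p ran from these values to 1.00. Without Acly_KD replicate 1, 4 of the 7 values were below zero, and the median was -0.21, beside -0.010 over all features. Without Acly_KD replicate 3, 6 of the 6 genes that passed the filter were below zero, with a median of -1.59, beside -0.008 over all features. In limma-voom on all libraries 7 of 7 were below zero, with a median of -1.13, beside -0.054.

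**Figure D4:**
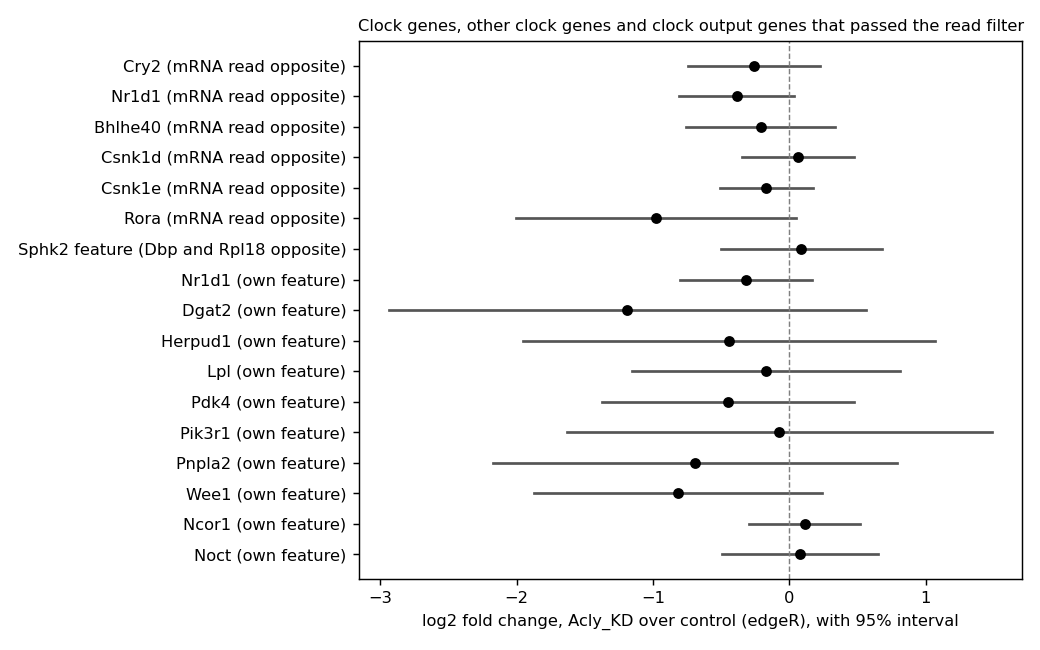
Log2 fold changes (Acly_KD over control, edgeR) with 95% intervals for the clock genes, other clock genes and clock output genes that passed the read filter, in the reading of mRNA or at their own rows, and for the Sphk2 row. All intervals include zero, and those of Dgat2, Pik3r1, Herpud1, Pnpla2 and Wee1 are wider than that of Rora, which is the widest in the reading of mRNA.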

How the data were processed

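Libraries were made from poly-A RNA with a kit that marks strand and sequenced as paired ends, per the labels' protocols. Tools named in the submitters' processing notes are FastQC, TopHat2, SAMtools, HTSeq and DESeq2, with mm10 as the build; how HTSeq was set for strand was not stated there. The deposited values are the authors' raw counts of reads for each gene. Rows naming no gene took 97.4% to 97.7% of entries and were left out. No library repeated another of its group (chi-square over degrees of freedom 3.43 to 10.1).

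Features were matched by identifier to GENCODE M21. All features were tested together with edgeR 4.0.16 in R 4.3.3 by its robust quasi-likelihood test, after filterByExpr (minimum count 10) and TMM, with Benjamini-Hochberg adjustment at 0.05. In the reading of mRNA, the counts of a nuclear feature were credited to the gene on the other strand that held 80% or more of its overlap, and 50 bases or more, provided this gene was absent from the tables or had fewer counts itself. Reads of a gene, of its partner's antisense and from elsewhere in the partner cannot be told apart. Steps were tested on simulated counts.

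Members, lists and the reading were chosen with earlier results of these data known. Named genes were the 10 members with their opposite-strand features and, per list and reading, members passing the test or else the 4 with the most reads. Acly and Xist were read to compare the libraries, Acly at its own row, which does not measure its mRNA. Alternatives used DESeq2 1.42.0 and limma 3.58.1, other scalings, filters and terms, and each library left out.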

Additional observations from a re-analysis of the deposited data

How the results depend on the processing

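In the runs made, 0 of the 10 clock genes and 0 of their opposite-strand features passed the test under any alternative. Nr1d1 stayed below zero in all 17 alternatives of the reading of mRNA, from -0.56 to -0.29, with adjusted p from 0.395 to 0.996. Features called as deposited numbered 0 by edgeR and by DESeq2 (180 and 147 with a raw p under 0.05), 3 with no filter, 3 with limma-voom, 3 with a term for reads in features without opposite-strand exons (chosen after seeing the data), and 0 to 69 with single libraries left out, 69 being without Acly_KD replicate 3. Genes called in the reading of mRNA numbered 6, against 2 with uniquely aligned reads as library size, 30 with no filter, 0 with a mean of at least 20 reads (107 with a raw p under 0.05), 0 with a term marking the 2 libraries that hold Xist reads (96), 1 with the added term, 0 by DESeq2 (94), 14 by limma-voom, 3 with at least 200 shared bases, and 1 to 20 with single libraries left out, 1 being without control replicate 2 and 20 without Acly_KD replicate 3. With the replicate block the reading of mRNA gave 12 calls and the table as deposited 0 (151 with a raw p under 0.05); same-numbered libraries correlated at -0.18 to -0.02 as deposited, so the numbers show no pairing. Taking uniquely aligned reads as library size moved the median of all features by -0.10.

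Of 267 single values under alternatives, 244 kept their direction and their side of the threshold, 2 passed it (Pdk4 and Herpud1, in the report) and 21 changed sign; the cause was not tested. With the Xist term the log2 fold change was -0.38 for Sphk2, 0.15 for D930015M05Rik, 0.11 for Cry2, 0.18 for Rora and 0.087 for Pdk4. For Nr1d1 in the reading of mRNA it was -0.36 (SE 0.31) with that term, beside -0.39 (SE 0.20) without it. In the rows as deposited the log2 fold change with that term was -0.16 for Nr1d1, -0.32 for Thra and 0.67 for Noct. With uniquely aligned reads it was -0.042 for Sphk2, -0.025 for Noct and -0.012 for Csnk1d, with library totals -0.002 for Sphk2, and with the added term -0.012 for Sphk2, -0.011 for Csnk1d and 0.12 for Lpl. With single libraries left out it ran from -0.13 (without control replicate 3) to 0.42 for Sphk2, -0.31 to 0.024 (without control replicate 3) for D930015M05Rik, -0.040 (without control replicate 1) to 0.34 for Noct, -0.73 to 0.15 (without Acly_KD replicate 1) for Lpl, -2.04 to 0.062 (without Acly_KD replicate 1) for Herpud1, -0.054 (without Acly_KD replicate 2) to 0.18 for Csnk1d, and -0.385 to 0.036 (without Acly_KD replicate 3) for Bhlhe40. Depth limits the 9 own rows with at most 44 reads.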
